A study of Mus musculus with 18 samples.

Results

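The comparison set 2 clones of mouse induced pluripotent stem cells (iPSCs) against each other that carry the same knockout (KO), that of Hmga2, before any induction of differentiation. Its members were chosen by their labels: the 3 libraries of KO clone #2 (KO#2) and the 3 libraries of KO clone #1 (KO#1) taken at 0 h, 6 of the 18 libraries of the series. Cells of both clones were cultured on inactivated fibroblast feeders in medium with LIF and the 2 inhibitors known as 2i, so that they were undifferentiated iPSCs, and neither clone had been treated with an agent that the other lacked. The other libraries were 3 of a wt iPSC clone at 0 h, used here to show the level in cells with Hmga2, and 9 libraries of wt, KO#1 and KO#2 cells at 24 h of the induction into epiblast-like cells (EpiLCs) with Activin A and bFGF, of which the 6 KO libraries served as other samples of the same clones. RNA of all cells was total RNA, sequenced in paired ends, and sequences of ribosomal RNA were removed from the reads. Each KO line was a single clone, so that what belongs to a clone and what belongs to the KO in general cannot be told apart from either clone alone, and the comparison of the clones measured how much 2 lines with the same genotype differed.

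Hmga2 is a chromatin protein with AT-hooks, which bind AT-rich DNA, and Hmga1 is its close relative. Undifferentiated mouse pluripotent cells express Pou5f1, Sox2 and Nanog and stand in the naive state under LIF and 2i. Lines of such cells made separately can differ in the dosage of whole chromosomes, in the number and activity of X chromosomes, in imprinted genes, of which only the copy of one parent is normally expressed, and in the share of cells that pass through a state like that of the embryo at the two-cell stage, which is marked by the Zscan4 genes.

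Library composition differed between the clones before any gene was tested. Total counts were 6358167, 4531798 and 14613617 in KO#1 and 16995756, 15952637 and 14495941 in KO#2, so that 3 counts, taken as the limit of detection of a library, corresponded to between 0.175 and 0.626 CPM (counts scaled by library size and TMM factor) in KO#1 and to between 0.122 and 0.144 CPM in KO#2. All 6 KO#2 libraries of both times had between 21886 and 23011 genes with a count and a TMM factor, the scaling factor for library composition, between 1.31 and 1.45. The 12 KO#1 and wt libraries of both times had between 15778 and 20299 genes with a count and TMM factors between 0.507 and 1.21. Differences between the clones also followed base composition. In the decile of genes with the lowest GC content of the transcript (median 39.1%), the median log2 fold change was 1.21, whereas it was -0.59 in the decile with the highest (median 59.6%), and across all genes Spearman's rho of GC content and log2 fold change was -0.51. Therefore the counts were also corrected for GC content, a step chosen after seeing the data. Lists and classes of genes are given with their counts after this correction, and where a named gene lost its call under it, this is said beside the gene. Clone, library composition and GC content go together in these libraries and cannot be told apart.

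**Figure D1:**
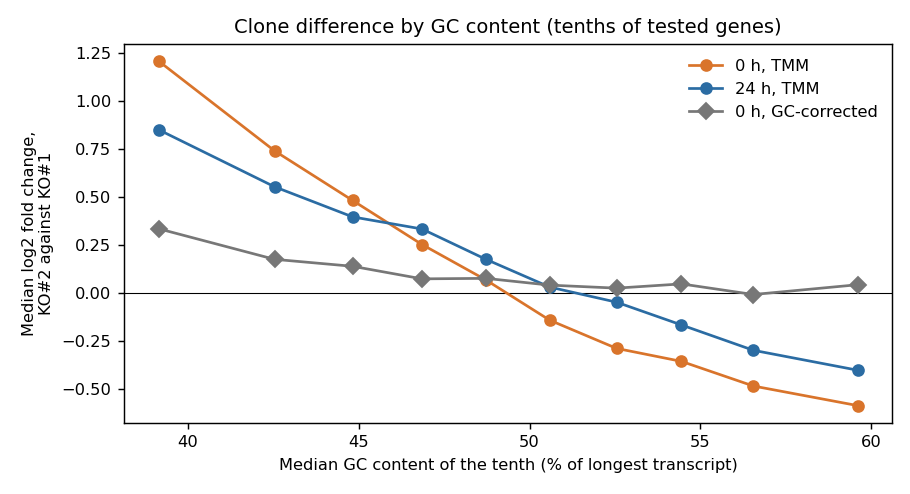
Median log2 fold change of KO#2 against KO#1 in deciles of the tested genes by the GC content (percent) of the longest transcript, at 0 h, at 24 h and at 0 h after the GC correction. At 0 h the medians run from 1.21 in the decile with the lowest GC content to -0.59 in the decile with the highest, and at 24 h from 0.85 to -0.40.

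Hmga2 itself (chr10:120361275-120476469, GRCm38) was not called between the clones. Its level was 10.2, 4.59 and 1.75 CPM in the KO#1 libraries and 4.10, 1.84 and 8.25 CPM in the KO#2 libraries, and the ranges overlapped. All 6 lay below the 3 wt libraries, which had 17.4, 13.3 and 22.4 CPM. The log2 fold change of KO#2 against KO#1 was -0.19 (SE 0.62, adjusted p = 0.852), where log2 fold changes are positive for a higher level in KO#2 and adjusted p-values are those of the quasi-likelihood test of edgeR over all genes tested. Reads of Hmga2 were thus counted in all KO libraries; which part of the gene is deleted is not given in the sources used here. Hmga1 fell further in KO#2: it had 86.8, 142 and 57.0 CPM in KO#1 and 31.9, 24.3 and 42.8 CPM in KO#2, against 436, 339 and 278 CPM in wt cells, and the clones differed by -1.53 (SE 0.37, adjusted p = 0.00684). After the GC correction the difference in Hmga1 was -0.76 (adjusted p = 0.0752). The other 5 genes tested of the Hmga and Lin28 list were not called.

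Of 16619 genes tested, 4393 (26.4%) differed between the clones at an adjusted p under 0.05, 2516 higher (15.1%) and 1877 lower (11.3%) in KO#2. Their median size on the log2 scale was 1.25, and 3052 of them differed by at least 1. The 3 libraries of one clone lay entirely above or below the 3 of the other for 4183 of the genes called (95.2%) and for 6948 of all genes tested (41.8%). By comparison, 1108 genes (6.67%) were called for KO#1 against wt and 6329 (38.1%) for KO#2 against wt, 2 comparisons that share the wt libraries. After the GC correction 2559 genes (15.4%) were called between the clones, of which 1922 were called in the same direction without it. This is 43.8% of the genes called without and 75.1% of those called with the correction. The split of calls depended on scaling: without composition factors, the median of all genes moved by 0.31, and of 3479 genes called 90.6% were higher in KO#2, against 57.3% with TMM.

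The classes of genes did not share these calls evenly. Genes that passed the filter on low counts only through their level in KO#2 had to differ. The following counts and medians by class are therefore a description. Among 945 pseudogenes tested, 347 were higher and 19 lower in KO#2, with a median log2 fold change of 1.43 (316 and 14 after the GC correction, median 1.44). Among 443 loci annotated as TEC, transcribed regions that still have to be experimentally established as genes, 147 were higher and 3 lower (median 1.76), but 34 and 5 after the correction (median 1.13). The 14045 protein-coding genes had 1841 higher and 1791 lower and a median of -0.07, which was 0.02 after the correction, with 984 higher and 1035 lower. Small nuclear RNAs went the other way, with 3 higher and 11 lower of 50 (median -1.17), and 3 and 15 after the correction (median -0.82). The protein-coding share of the counts tested was 67.7%, 62.0% and 77.4% in KO#1 and 76.4%, 78.7% and 79.1% in KO#2, and its part in these counts was not tested.

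Genes of the two-cell-like state were counted mainly in KO#2. Of 19 members listed 17 passed the filter on low counts. Of these 17, 15 had at least 10 counts in every KO#2 library, while 15 were under 10 counts in 2 or more of the KO#1 libraries, which are partly shallower. Members that passed through their level in KO#2 had to differ, so that the following count and median are a description. Of the 17, 13 were higher and none was lower in KO#2, beside 15.1% of all genes higher, with a median log2 fold change of 2.58 against 0.02 over all genes. After the GC correction 9 were higher (median 2.40), beside 8.71% of all genes. The 1 member with at least 10 counts in all 6 libraries, Zscan4f, was higher. The summed level of the list was 8.86, 6.68 and 27.3 CPM in KO#1 and 81.1, 109 and 221 CPM in KO#2, and 23.6, 21.6 and 13.2 CPM in wt cells. Thus KO#1 spanned the wt range and every KO#2 library stood above it, and replicate 3 was the highest library in both clones. Leaving out replicate 3 of KO#2 left 7 members higher (median 1.86), and leaving out replicate 1 or replicate 2 of KO#1 left 8.

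The Zscan4 genes, which encode zinc finger proteins of the two-cell stage and of a few cells in cultures of pluripotent cells at any time, form a cluster of near-identical copies on chromosome 7. Because the sequences are so alike, reads may be divided between the copies by the counting, and the family is better read as a whole than copy by copy. The promoters of the 3 copies that rose most, from 250 bases before to 50 bases after the start of transcription as RefSeq gives them in GRCm38.p6, show the likeness. In them, capitals mark the longest run, of 55 bases, that is identical in all 3 copies: Zscan4c lies at chr7:11005495-11005794 on the plus strand, Zscan4d at chr7:11166099-11166398 on the minus strand and Zscan4f at chr7:11397665-11397964 on the plus strand.
Zscan4c: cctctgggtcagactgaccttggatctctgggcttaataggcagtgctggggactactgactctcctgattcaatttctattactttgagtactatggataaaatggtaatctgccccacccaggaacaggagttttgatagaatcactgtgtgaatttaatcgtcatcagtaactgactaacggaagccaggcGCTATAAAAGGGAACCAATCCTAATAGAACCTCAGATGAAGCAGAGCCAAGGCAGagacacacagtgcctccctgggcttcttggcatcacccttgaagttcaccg
Zscan4d: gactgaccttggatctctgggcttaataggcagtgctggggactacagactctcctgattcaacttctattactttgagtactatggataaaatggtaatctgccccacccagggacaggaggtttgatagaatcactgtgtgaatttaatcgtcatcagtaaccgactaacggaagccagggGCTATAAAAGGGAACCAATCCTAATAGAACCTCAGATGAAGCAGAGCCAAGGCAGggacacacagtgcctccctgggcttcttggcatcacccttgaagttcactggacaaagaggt
Zscan4f: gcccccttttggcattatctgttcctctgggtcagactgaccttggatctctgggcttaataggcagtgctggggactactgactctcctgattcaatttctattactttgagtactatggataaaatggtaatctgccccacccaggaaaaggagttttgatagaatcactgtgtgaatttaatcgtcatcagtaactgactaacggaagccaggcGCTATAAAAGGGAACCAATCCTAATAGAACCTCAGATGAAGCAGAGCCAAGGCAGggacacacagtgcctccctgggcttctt

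The aligned bases of these promoters were identical at 281 of 289 positions (97.2%) between Zscan4c and Zscan4d, at 275 of 277 (99.3%) between Zscan4c and Zscan4f and at 259 of 266 (97.4%) between Zscan4d and Zscan4f. The letters TATAAA occurred once in each, counting both strands, and lay within the shared run. Of 32851 promoters of this length, 4473 (13.6%) held them. Zscan4c, from this first promoter, had 0.521, 1.04 and 2.80 CPM in KO#1 and 12.4, 17.9 and 35.8 CPM in KO#2. The lowest KO#2 library was above the highest KO#1 library, and the log2 fold change was 3.76 (SE 0.69, adjusted p = 0.00124). Zscan4d rose from 0.521, 0.209 and 1.52 CPM to 6.91, 13 and 24.5 CPM (log2 fold change 4.03, SE 0.78, adjusted p = 0.00172), although the KO#1 values rest on 4, 1 and 26 counts. Zscan4f, the most abundant copy, had 1.82, 2.51 and 6.30 CPM in KO#1 and 21.9, 35.9 and 78.4 CPM in KO#2, and differed by 3.59 (SE 0.65, adjusted p = 0.00113). In wt cells Zscan4f had 7.54, 6.61 and 3.84 CPM, overlapping KO#1. The other members Zscan4b and Zscan4e were higher as well (2.58 and 2.78), but not after the GC correction (adjusted p = 0.0738 and 0.0777).

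Of the other members, Gm8300, a protein-coding gene on chromosome 12, was higher by 3.96 (SE 0.64, adjusted p = 0.000546), with 0.261, 0.209 and 0.525 CPM in KO#1 and 3.90, 6.21 and 7.87 CPM in KO#2. Usp17lb, Usp17lc, Usp17ld and Usp17le, which encode deubiquitinating enzymes and lie on chromosome 7, were higher by between 1.81 and 4.23. Usp17ld had 1, 0 and 1 counts in KO#1 against 22, 25 and 47 in KO#2, a ratio of 20.5 with a counting interval of 5.53 to 172. Tcstv3, with 0, 0 and 1 counts against 12, 8 and 11, had a ratio of 13.6 with an interval of 2.26 to 552. Zfp352 and Tdpoz3, both at under 4 CPM in every library, completed the members called. With the GC correction Tcstv3 and Tdpoz3 lost the call (adjusted p = 0.0523 and 0.067). Duxf3, of the Dux family of transcription factors that activates genes of this state, was not called: it had 0.391, 0.209 and 0.817 CPM in KO#1 and 0.366, 0.540 and 0.623 CPM in KO#2 (-0.08, SE 0.62, adjusted p = 0.941), and these are values from 3, 1 and 14 and from 9, 12 and 13 counts.

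**Figure D2:**
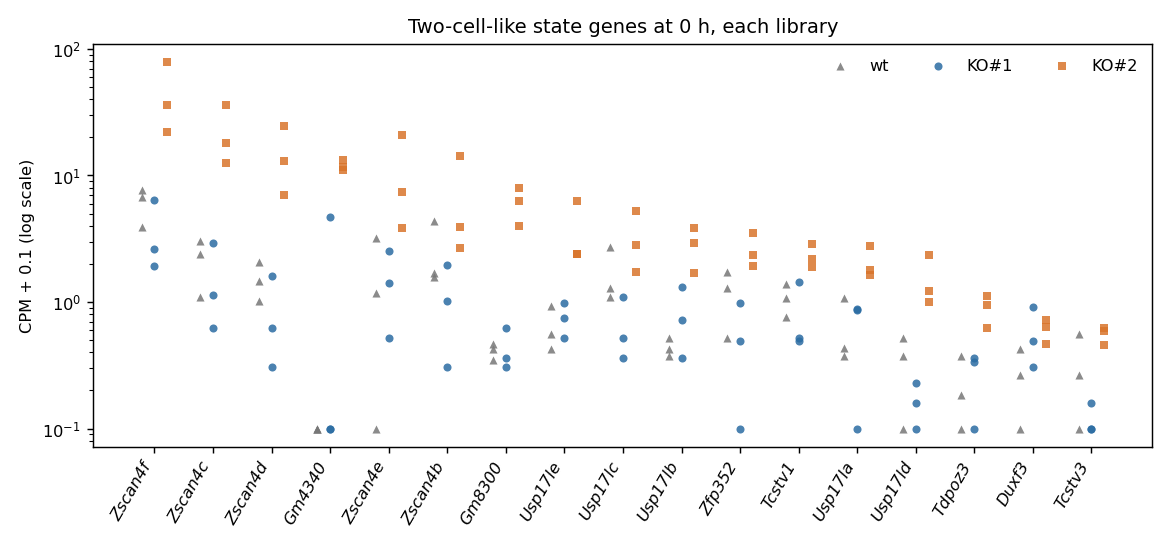
Level (CPM, log axis) of two-cell-like state genes in each library of wt, KO#1 and KO#2 cells at 0 h, each point being 1 library. For Zscan4c, Zscan4d and Zscan4f all KO#2 points lie above all KO#1 points, while the points of Duxf3 overlap.

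Of the other genes named for a large difference, Pramef25, of the Prame family, had 0.391, 0 and 0.175 CPM in KO#1 and 2.93, 4.86 and 10.6 CPM in KO#2 and differed by 4.86 (SE 0.90, adjusted p = 0.00131). Gm4027 and Gm2016, neighbours of Gm8300 on chromosome 12, were higher by 4.23 and 4.00. On chromosome 10, Gm21312 had no count in KO#1 and 5.28, 11 and 27.8 CPM in KO#2, at least 36.9-fold higher against the limit of 3 counts in each library, but its adjusted p of 0.0449 was lost after the GC correction (0.0666) and without any single library of the comparison. Gm8764, beside it, had 0, 1.67 and 0 CPM against 8.17, 6.34 and 11.7 CPM (4.62, SE 1.62, adjusted p = 0.0423), and its call was lost after the GC correction (adjusted p = 0.0659) and in 5 of the 6 fits that left out a library. Gm4340, from the same stretch and a member of the two-cell-like list, was not called (adjusted p = 0.128). Replicate 3 of KO#1 had 4.61 CPM of it and the others 0, against 11.6, 13.3 and 11 CPM in KO#2.

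A further difference was that of a whole chromosome. Of 818 genes tested on chromosome 8, 306 were lower and 33 higher in KO#2 (41.4% called, beside 21.6% to 29.8% on the other 18 autosomes), with a median log2 fold change of -0.73. The medians of the other autosomes ran from -0.25 to 0.44. After the GC correction the median of chromosome 8 was -0.53, and those of the others ran from -0.02 to 0.36. When the chromosome was read in windows of 30 neighbouring genes, all 53 windows had a median below 0 with the GC correction (between -0.96 and -0.24), beside 321 of 977 windows (32.9%) on the other autosomes. The shift thus ran along the whole length of the chromosome rather than over a part of it. KO#1 was the clone that stood further apart from wt cells. The GC-corrected median of KO#1 against wt was above 0 in 52 of 53 windows, beside 519 of 977 (53.1%) on the other autosomes. For KO#2 against wt it was above 0 in 17 of 53 windows (32.1%), beside 618 of 977 (63.3%) on the other autosomes.

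Levels in single libraries were compared with those of other autosomal genes of the same GC decile, over 566 genes of chromosome 8 with at least 5 CPM. The median log2 level relative to the wt mean was 0.50, 0.48 and 0.53 in KO#1 (0.50 ± 0.025, SD, n = 3) and -0.04, -0.05 and -0.06 in KO#2 (-0.05 ± 0.012, SD, n = 3), while the wt libraries lay at -0.03, 0.01 and 0.02. The clones differed by -0.55, far more than the spread within either, and the two-sided exact permutation test gave p = 0.1, the smallest p that the 20 splits of 3 against 3 libraries allow. Since chromosome 8 was picked for its shift in these same libraries, this p cannot serve as a separate test of it. At 24 h, in other libraries of the same clones, the levels were 0.46, 0.46 and 0.47 in KO#1 and -0.01, -0.02 and -0.04 in the libraries labelled KO#2. The 5 genes with the smallest p among those lower in KO#2 all lie on chromosome 8. Nr2c2ap, which encodes a protein associated with a nuclear receptor, had 35.2, 49.5 and 48.9 CPM in KO#1 and 10.6, 12.0 and 12.0 CPM in KO#2 (-1.95, SE 0.22, adjusted p = 0.000104). Babam1, a subunit of the BRCA1-A complex, fell by 1.77 on the log2 scale, Ciapin1, a protein of iron-sulfur cluster assembly, by 1.76, and 2810004N23Rik and 2810428I15Rik by 1.70 and 2.19 on the log2 scale. The proteasome gene Psmb10 also fell, from 4.30, 8.98 and 7.94 CPM to 0.650, 1.71 and 1.97 CPM (-2.29, SE 0.40, adjusted p = 0.000833). RNA levels do not measure the number of copies of a chromosome, which was not analysed here.

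**Figure D3:**
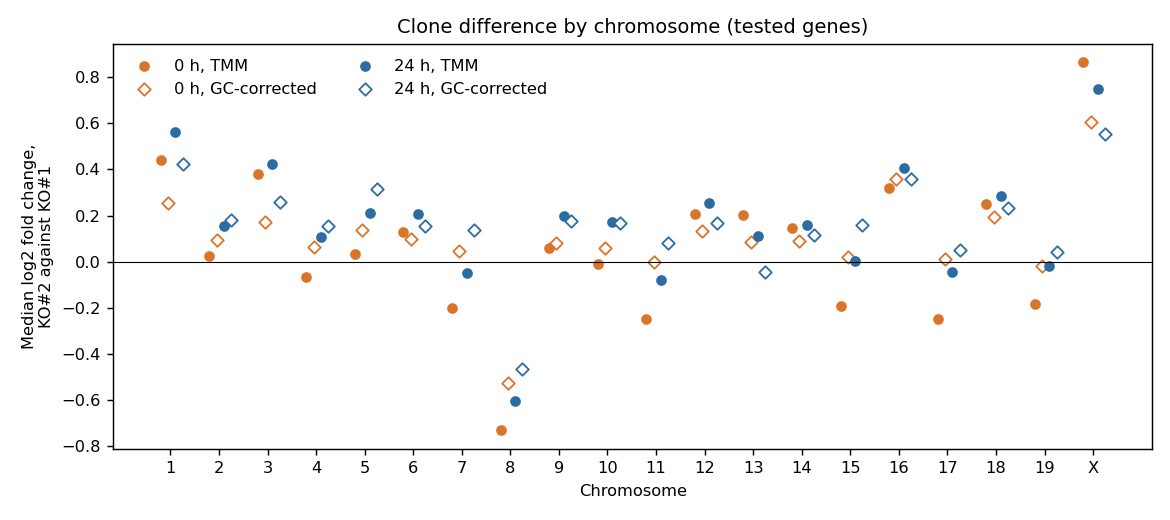
Median log2 fold change of KO#2 against KO#1 for the genes of each autosome and of chromosome X at 0 h and 24 h, without and with the GC correction. Among these chromosomes, number 8 lies lowest (-0.73 at 0 h) and X highest (0.86 at 0 h) at both times, and the other autosomes lie between -0.25 and 0.44 at 0 h.

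Genes on chromosome X were shifted the other way, but less evenly. Of 639 tested, 214 were higher and 5 lower in KO#2, beside 15.1% and 11.3% of all genes, with a median of 0.86. With the GC correction 141 were higher and 5 lower, beside 8.71% and 6.69% of all genes, with a median of 0.61. All 41 windows of 30 genes were above 0 with the GC correction (0.07 to 1.16), and 39 were without it. On the other autosomes 656 of 977 windows (67.1%) were above 0 with the correction, the highest at 1.46. At 0 h the GC-corrected median was 0.57 for KO#2 against wt, and that of KO#1 against wt was 0.04. In single libraries, however, the level relative to other genes of the same GC decile was -0.23, -0.17 and 0.35 in KO#1 and 0.51, 0.52 and 0.09 in KO#2, so that replicate 3 of each clone lay towards the other clone and the ranges overlapped (difference 0.39, exact permutation p = 0.2, two-sided). At 24 h the levels were -0.19, -0.15 and -0.24 in KO#1 and -0.13, 0.28 and 0.02 in the libraries labelled KO#2, a difference of 0.25 (exact permutation p = 0.1, two-sided, the smallest possible). There KO#1 lay below the wt libraries (mean 0.0029) and KO#2 on both sides of them. Without replicate 3 of KO#1 the median of the chromosome was 1.28. Xist, the non-coding RNA that coats and silences an X chromosome, was 10.3, 5.22 and 2.86 CPM in KO#1, 85.3, 47.8 and 39.2 CPM in KO#2 and 3.61, 3.21 and 4.17 CPM in wt cells. It was higher in KO#2 by 3.25 (SE 0.47, adjusted p = 0.000306), and by 2.58 after the GC correction (adjusted p = 0.00159). Tsix, its antisense partner, which overlaps it, was not called (0.68, adjusted p = 0.235), and although the library kit keeps the strand, the strand setting of the counting is not given in the sources used here, so that reads of the pair may not have been told apart. Atrx, a chromatin remodeller, had 107, 114 and 90.2 CPM in KO#1 against 512, 472 and 413 CPM in KO#2 (2.17, SE 0.23, adjusted p = 6.6e-05), and the bromodomain gene Brwd3 had 12.3, 17.7 and 13.7 CPM against 99.1, 67.8 and 60.4 CPM (2.39, SE 0.24, adjusted p = 3.64e-05). Both lie on chromosome X and have transcripts with a GC content of 39.5% and 38.5%, and the GC correction lowered their differences to 1.33 and 1.48. Of the Y-linked genes, Ddx3y was higher in KO#2, with 2, 3 and 2 counts against 35, 59 and 88 (3.34, SE 0.77, adjusted p = 0.00527), whereas Eif2s3y and Kdm5d, at or below 1.68 CPM in every library, were not called.

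**Figure D4:**
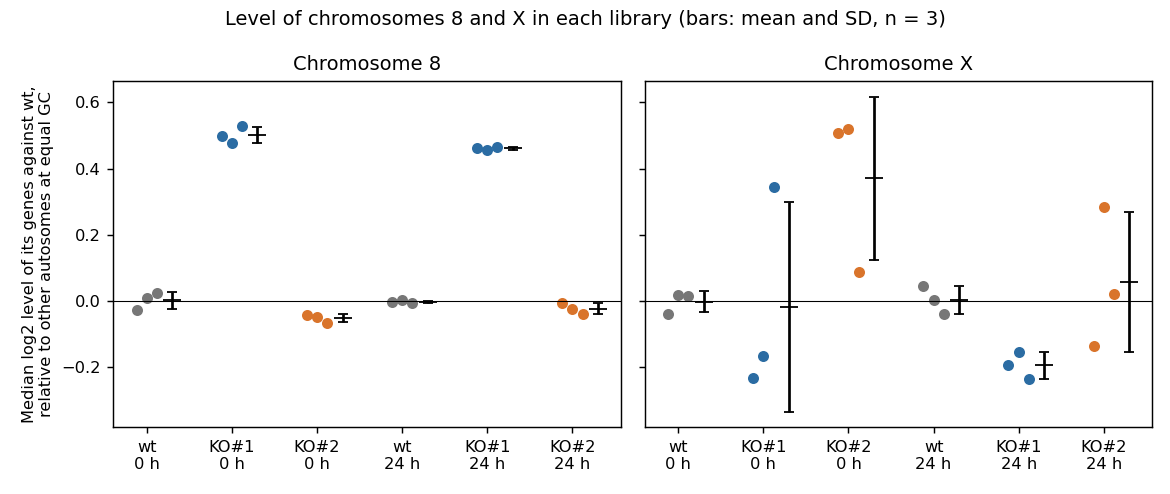
Level of chromosomes 8 and X in each library at 0 h and 24 h, as the median log2 difference from the wt mean of that time relative to other autosomal genes of the same GC decile. Points are libraries and bars the mean and SD of 3; on chromosome 8 the KO#1 libraries lie between 0.46 and 0.53 at both times and KO#2 and wt near 0, and on chromosome X the clones overlap at 0 h.

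Imprinted genes were mostly higher in KO#2 where they differed. Of 36 tested, 13 were higher and 1 lower, beside 15.1% and 11.3% of all genes, with a median of 0.54; after the GC correction 9 were higher and 1 lower (median 0.63). Leaving out each library gave between 9 and 12 higher and 1 lower. H19, a non-coding RNA expressed from the maternal copy, had 38.1, 18.2 and 8.93 CPM in KO#1, 295, 656 and 49.6 CPM in KO#2 and 36.4, 12.8 and 6.84 CPM in wt cells (log2 fold change 3.95, SE 0.82, adjusted p = 0.00276). The KO#2 libraries differed among themselves by more than the KO#1 libraries did, replicate 3 being the lowest in both clones. Igf2, its paternally expressed neighbour, was not called (0.81, adjusted p = 0.275).

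Peg3, a paternally expressed zinc finger gene on chromosome 7, rose more evenly, from 44.1, 67.0 and 32.6 CPM to 217, 176 and 286 CPM (2.25, SE 0.31, adjusted p = 0.000252). Its neighbours Zim1 and Usp29 were higher as well (2.37 and 2.43), at under 2 CPM in every library of the clones, but not after the GC correction (adjusted p = 0.0748 and 0.0507). Kcnq1ot1, the non-coding RNA of another imprinted domain of chromosome 7, had 107, 54.1 and 54.3 CPM in KO#1 and 460, 235 and 499 CPM in KO#2 (2.47, SE 0.41, adjusted p = 0.000684). It overlaps Kcnq1 on the other strand. Cdkn1c, the growth inhibitor of the same domain, was also higher, by 2.78 (SE 0.68, adjusted p = 0.00722), from 3, 1 and 9 counts to 74, 113 and 15 counts. Peg10 and Sgce, a pair of neighbours on chromosome 6, were higher by 2.23 and 1.38, the latter not after the GC correction (0.47, adjusted p = 0.496). Zrsr1, Impact, Nespas, Slc38a4 and Zdbf2 were higher by between 0.95 and 1.35, of which Slc38a4 and Zdbf2 lost the call with the correction. Mest was the only imprinted gene called lower: it had 19.9, 12.9 and 45.1 CPM in KO#1 and 9.47, 9.17 and 11.4 CPM in KO#2 (-1.40, SE 0.35, adjusted p = 0.00789), with 13.4, 11 and 10.5 CPM in wt cells. Meg3 and Snrpn were not called at 0 h (adjusted p = 0.244 and 0.253).

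The genes of the undifferentiated state were expressed in both clones. Of 12 core pluripotency genes 3 were lower and none higher in KO#2 (median -0.25), beside 11.3% of all genes lower, and 1 was lower after the GC correction (median -0.18). With scaling by library size alone 1 was higher and none lower (median 0.06). Of 12 naive pluripotency factors 1 was lower (median -0.43), a share near that of all genes. After the GC correction 1 was higher and none lower (median -0.30), the gene higher being Nr0b1 (0.89, adjusted p = 0.00997), and with library sizes alone none was called (median -0.13). Pou5f1, the central factor of pluripotency, had 1015, 1256 and 1110 CPM in KO#1, 472, 539 and 567 CPM in KO#2 and 1465, 1079 and 886 CPM in wt cells, and fell by 1.10 on the log2 scale (SE 0.25, adjusted p = 0.00472). After the GC correction the difference was -0.57 (adjusted p = 0.0826). Sox2 was not called, with 229, 249 and 214 CPM against 243, 236 and 240 CPM (0.05, adjusted p = 0.906), and neither Nanog (-0.60, SE 0.46, adjusted p = 0.343) nor Esrrb, Klf4 or Tfcp2l1 was called. Gdf3, a ligand of the TGF-beta family, fell by 0.93 on the log2 scale (adjusted p = 0.0184), also after the GC correction (-0.83, adjusted p = 0.028), but not without replicate 3 of KO#1 or replicate 1 of KO#2. Utf1 fell by 1.03 on the log2 scale, but not after the GC correction (-0.17, adjusted p = 0.613) or in 4 of the 6 fits that left out a library. Klf2, the naive factor called, lies on chromosome 8: it had 184, 221 and 149 CPM in KO#1 and 86.5, 58.6 and 69.9 CPM in KO#2 (-1.36, SE 0.36, adjusted p = 0.0103), and -0.65 (adjusted p = 0.0811) after the GC correction. Of 12 formative and primed genes 1 was higher and none lower in KO#2 (median -0.18), beside 15.1% of all genes higher. After the GC correction 2 were higher (median 0.18), beside 8.71% of all genes. In the libraries labelled KO#2 at 24 h 4 were higher, beside 19.3% of all genes, and 8 after the GC correction, beside 3361 of 16619 genes. Among these genes, Fgf5 had at most 0.521 CPM in the libraries of both clones at 0 h.

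In cholesterol synthesis 8 of 20 genes were lower and none higher in KO#2 (median -0.77), and 7 were lower after the GC correction (median -0.63), beside 11.3% and 6.69% of all genes. Fdps, which makes farnesyl diphosphate, had 65.6, 85 and 186 CPM in KO#1 and 24.6, 37.8 and 25.9 CPM in KO#2 (-1.93, SE 0.34, adjusted p = 0.000958), and wt cells had 44.6, 54.7 and 36.5 CPM. Mvd, of the mevalonate steps, fell by 1.52 on the log2 scale and lies on chromosome 8. Dhcr7 and Fdft1, which catalyse the last step and the making of squalene, fell by 1.43 and 1.23 on the log2 scale. Mvk, Pmvk and Tm7sf2 were also lower, with log2 fold changes between -0.96 and -0.83. With the GC correction Mvk and Pmvk were among those that lost the call, and Msmo1 and Hsd17b7 were called lower. Hmgcs1, an early enzyme of the pathway, was not called (0.19). Replicate 3 of KO#1 carried the highest level of Fdps, Fdft1 and Mvd, and without it 5 genes were lower and 1 higher with a median of -0.28. Fdft1 then lost its call (adjusted p = 0.0572). Under scaling by library size alone 3 genes were lower (median -0.48), and Fdft1 was not called (adjusted p = 0.0701).

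The GC correction changed other groups much more. Of 31 zinc finger genes of the Zfp900 series, which are KRAB-type repressors by family, 19 were higher and none lower in KO#2 (median 1.40), beside 15.1% of all genes higher. After the correction 3 were higher (median 0.59), a share near the 8.71% of all genes. Their transcripts have a median GC content of 38.7%. Leaving out a library left between 9 and 13. Zfp932 had 4.82, 3.76 and 3.21 CPM in KO#1 and 16.7, 18.8 and 16.4 CPM in KO#2 (2.15, SE 0.45, adjusted p = 0.00294) and was still higher with the correction (1.15, adjusted p = 0.0225), unlike Zfp935, Zfp937 and Zfp947, which were higher by 2.07, 1.91 and 1.94 without it. Of 82 ribosomal protein genes 22 were lower (median -0.61), beside 11.3% of all genes. The count was 7 after the GC correction (median -0.42), 24 with a correction for both GC content and length (median -0.50), 2 when scaled by library size, and between 5 and 30 without a single library (5 without replicate 1 of KO#2). Rpl13, on chromosome 8, fell by 1.37 on the log2 scale. Of 71 clustered histone genes 21 were lower and 1 higher (median -0.77), 4 and 3 after the GC correction, 12 and 3 with GC content and length corrected, and 2 lower without replicate 2 of KO#1. In that library Hist1h2af, whose call was lost with the GC correction, had 244 CPM against 89.3 and 72.7 CPM in its group and between 30.8 and 41.8 CPM in KO#2. Hist1h2bq was the histone gene called higher, from 0.521, 1.25 and 0.409 CPM to 3.86, 5.53 and 4.94 CPM (2.89, SE 0.55, adjusted p = 0.00155). The low-GC transcripts of the mitochondrial genome, 15 tested, had 1 higher and 2 lower (median -0.22), with mt-Co2 higher by 1.42 and mt-Nd3 lower at -2.32, and none higher and 8 lower after the correction.

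**Figure D5:**
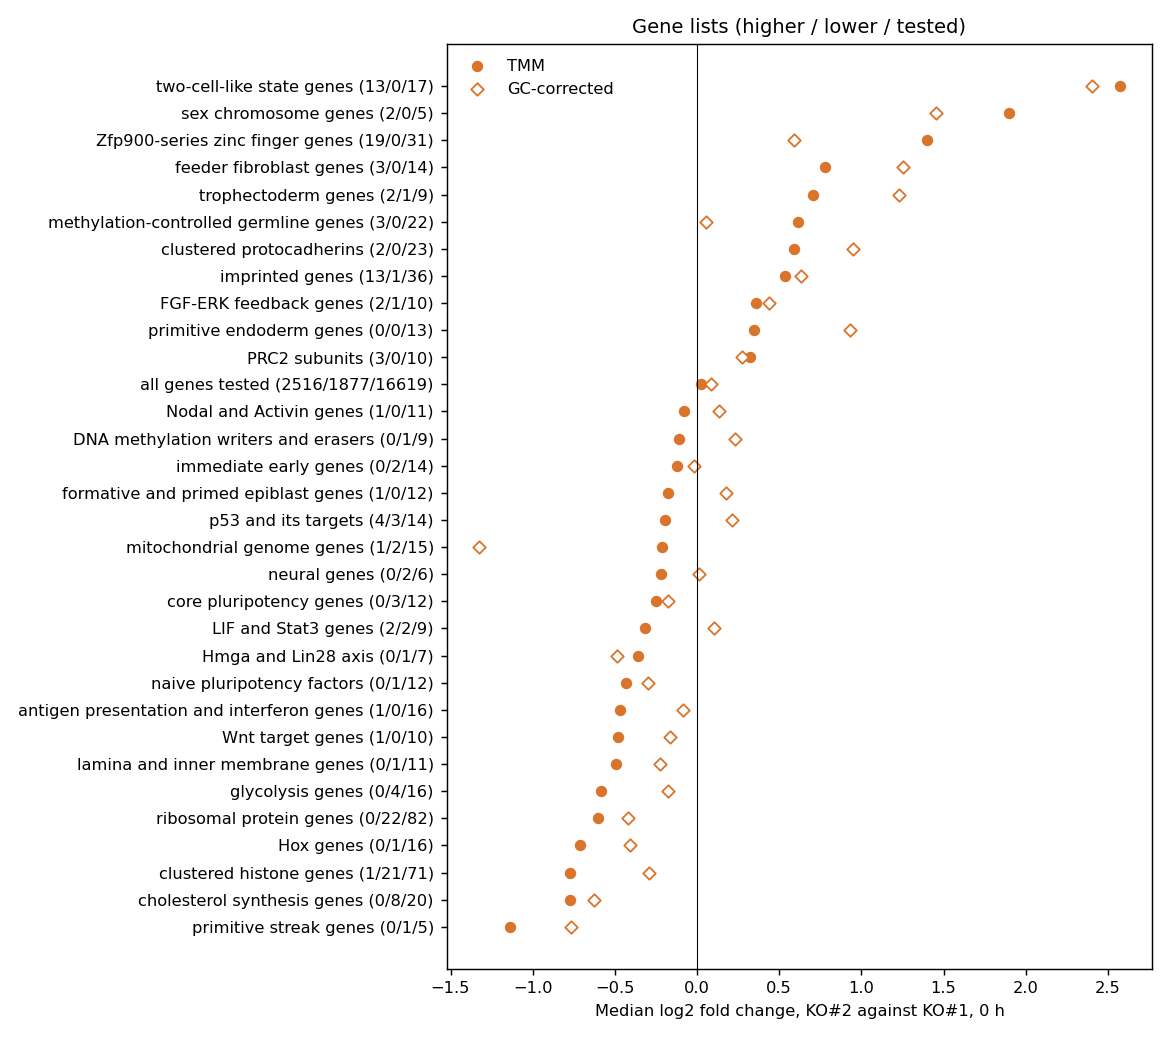
Median log2 fold change of KO#2 against KO#1 at 0 h for each gene list, without and with the GC correction, beside all genes tested, with the numbers of members higher, lower and tested beside each name. Two-cell-like genes lie furthest to the right (2.58, and 2.40 with the correction), and the Zfp900 series moves from 1.40 to 0.59 with the correction.

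Of 16 glycolysis genes 4 were lower and none higher (median -0.58), beside 11.3% of all genes, 1 was lower after the GC correction and none with scaling by library size alone. Gapdh had 1633, 1782 and 2136 CPM in KO#1 and 891, 846 and 880 CPM in KO#2 (-1.08, SE 0.25, adjusted p = 0.0047). It kept its call with the GC correction (-0.77, adjusted p = 0.0322), but not with scaling by library size alone (adjusted p = 0.102), and Eno1, Hk1 and Pgam1 lost theirs with the GC correction, and Hk1 and Pgam1 also in 2 and 4 of the 6 fits that left out a library. Among 14 genes of p53 and its targets 4 were higher and 3 lower, beside 15.1% and 11.3% of all genes. After the GC correction 1 was higher and 2 were lower, beside 8.71% and 6.69% of all genes. With scaling by library size alone 5 were higher and none was lower. Eda2r, a receptor on chromosome X, had 31.5, 20.5 and 39.7 CPM in KO#1 and 105, 113 and 73.7 CPM in KO#2 (1.66, SE 0.35, adjusted p = 0.00316), and Trp53inp1, Perp and Ccng1 were higher too, of which Trp53inp1 and Perp lost the call in 3 and 4 of the 6 fits that left out a library. The cell cycle inhibitor Cdkn1a fell by 1.36 on the log2 scale and Trp53 itself by 0.89 on the log2 scale, as did the apoptosis gene Bax (-1.10). With the correction Eda2r remained higher and Cdkn1a lower, with Pmaip1 (adjusted p = 0.0102) as the other gene lower; with library sizes alone the call of Cdkn1a was lost (adjusted p = 0.0627). Of 10 PRC2 subunits 3 were higher, beside 15.1% of all genes, Mtf2 by 1.70, Rbbp7, on chromosome X, by 0.95 and Suz12 by 0.90, and none of these after the GC correction, under which Rbbp4 was lower (-0.77, adjusted p = 0.0158). With GC content and length corrected 2 were higher and 1 lower, and Rbbp7 lost its call in 3 of the 6 fits that left out a library. Of 10 FGF-ERK feedback genes 2 were higher and 1 lower (3 and 1 after the GC correction), and of 9 LIF and Stat3 genes 2 were higher and 2 lower (1 and 1 after it), beside 26.4% of all genes called. With scaling by library size alone these lists had 3 and 2 higher and none lower, and Fgfr1, Pim1 and Junb lost the call (adjusted p = 0.0646, 0.0698 and 0.299). The FGF receptor Fgfr2 was higher (2.05, SE 0.46, adjusted p = 0.0046), at 0.209 to 1.40 CPM in KO#1 and 2.30 to 5.93 CPM in KO#2, although its annotated span overlaps many other genes. Fgfr1, on chromosome 8, was lower (-1.37, SE 0.34, adjusted p = 0.00757), and the phosphatase gene Dusp6 was higher by 0.93, a call lost in 3 of the 6 fits that left out a library. Of the LIF pathway the receptor gene Lifr was higher by 1.04 and the shared receptor chain Il6st by 0.94, and the kinase gene Pim1 and Junb fell by 1.18 and 0.88 on the log2 scale. Lifr and Junb lost the call with the GC correction and in 4 and 5 of the 6 fits that left out a library.

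Markers of other cell types were counted in both clones. Of 14 feeder fibroblast genes 3 were higher and none lower in KO#2 (median 0.78), beside 15.1% of all genes higher. The GC correction gave 5 higher (median 1.25), beside 8.71% of all genes, and scaling by library size alone gave 6, while at 24 h 6 were higher and 1 lower. Without replicate 3 of KO#2 2 members were higher at 0 h, with a median of -0.0062. The 3 members higher with all libraries and no correction were Dcn (3.79), Lox (1.86) and Pdgfrb (1.39, lost in 4 of the 6 fits that left out a library). The summed level of all 14 genes was 3525, 2599 and 1326 CPM in KO#1 and 2277, 1053 and 3098 CPM in KO#2, Fn1 being the most abundant in every library, and the ranges overlapped. Dcn had 2, 0 and 7 counts in KO#1, 78, 101 and 92 counts in KO#2 and none in wt cells, whereas the collagens Col1a1, Col1a2 and Col3a1 were not called and were highest in replicate 3 of KO#2, the library with the most fibroblast signal of its clone. The part of feeder cells in the differences of other genes was not tested. Of 9 trophectoderm genes 2 were higher and 1 lower (3 and 1 after the GC correction). The keratin gene Krt18 had 4.95, 2.09 and 3.04 CPM in KO#1 and 42.5, 79.2 and 7.10 CPM in KO#2 (3.65, SE 0.68, adjusted p = 0.00142), and Krt7 was higher by 2.41 (adjusted p = 0.037), a call lost in 5 of the 6 fits that left out a library. Krt8 had 22.9, 6.47 and 12.3 CPM against 44.7, 92.0 and 10.8 CPM and was called only after the GC correction (adjusted p = 0.0611 without and 0.0263 with it). The 3 keratins and H19 had the same order of the KO#2 libraries, highest in replicate 2 and lowest in replicate 3. Tfap2a, a transcription factor gene, fell by 2.44 on the log2 scale, while Gata3 and Hand1 were not called. None of 13 primitive endoderm genes was called, and 1 was higher after the GC correction (8 of them are at or below 5 CPM in all 6 libraries). The neural genes Sox1 and Tubb3, both on chromosome 8, fell by 1.22 and 2.42 on the log2 scale, but both calls were lost with the GC correction (adjusted p = 0.117 and 0.0653), and that of Sox1 with scaling by library size alone (adjusted p = 0.131). Each was also lost in 2 of the 6 fits that left out a library. Tubb3 had 10.6, 14.0 and 165 CPM in KO#1 and 7.68, 13.3 and 14.8 CPM in KO#2, and was at -0.03 without replicate 3 of KO#1.

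Among protein-coding genes outside the lists, Prelp, which encodes a proteoglycan of the extracellular matrix, had 0.782, 0.626 and 0.234 CPM in KO#1 and 12.0, 7.42 and 12.5 CPM in KO#2 (4.42, SE 0.73, adjusted p = 0.000647), with 0.656, 0.551 and 0.250 CPM in wt cells. Phip, a large gene on chromosome 9, had 31.1, 34.2 and 36.9 CPM in KO#1 and 159, 129 and 134 CPM in KO#2 and was higher by 2.04 (adjusted p = 4.94e-05), with a spread within each clone far below that difference. In the other direction Fyb, an adaptor of immune cell signalling, had 11.2, 23.8 and 3.91 CPM in KO#1 and 0, 0.405 and 0.480 CPM in KO#2 (-5.42, SE 1.5, adjusted p = 0.0137). Without replicate 1 of KO#2 the call was lost (adjusted p = 0.0587), and in wt cells Fyb ranged from 0 to 13.8 CPM. The neurofilament gene Nefh fell by 2.48 on the log2 scale. Also lower were the transcription factor gene Pou2f3 (-2.44), the acute phase gene Saa3 (-2.35), Alox12 (-2.13) and Ppp1r1a (-2.12).

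Some transcripts of other types were present in 1 clone only at this depth. Gm37376, a locus within Malat1, had no count in the KO#1 and wt libraries at 0 h and 13.4, 25 and 7.19 CPM in KO#2, at least 38.3-fold higher against the limit of 3 counts in each KO#1 library. The small RNA locus Gm24949 had no count in KO#1 and 7.11, 14.5 and 5.37 CPM in KO#2 (at least 22.6-fold), and an ACEA_U3 copy on chromosome 19 had none in KO#1 and 6.50, 21 and 2.88 CPM in KO#2 (at least 25.5-fold). Gm26825, on chromosome 5, had the smallest p of all genes higher, with 0.391, 0.418 and 0.642 CPM in KO#1 and 15.2, 33.8 and 12.0 CPM in KO#2 (5.26, SE 0.47, adjusted p = 1.81e-05). Gm23444, conversely, had 461, 581 and 517 CPM in KO#1 and 8.29, 7.83 and 7.48 CPM in KO#2 (-6.04, SE 1.06, adjusted p = 0.000903). Of 4 ACEA_U3 copies tested 2 were higher and 2 lower: a copy on chromosome 11 had 538, 1004 and 381 CPM in KO#1 and 0, 0 and 37.7 CPM in KO#2 (-5.67, adjusted p = 0.0273, lost in 3 of the 6 fits that left out a library). The copies are alike in sequence, so that their counts are uncertain one by one.

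The libraries of 24 h, which are other samples of the same clones, were used to see which differences were found again. At 24 h 5878 genes (35.4%) were called between the libraries labelled KO#2 and KO#1, 19.3% of all genes higher and 16.1% lower. The label of these KO#2 libraries is used with caution, since their Hmga2 level of 10.5, 3.02 and 3.48 CPM overlapped that of wt cells at 24 h (5.87, 5.51 and 5.93 CPM). Of the 2516 genes higher at 0 h, 1537 (61.1%) were called higher again, and of the 1877 lower, 1237 (65.9%) were called lower again. Only 15 of the 4393 were called in the other direction, and 4169 (94.9%) had the same sign. Across all genes, which are not independent replicates, Pearson's r of the log2 fold changes of 0 h and 24 h was 0.61, and 0.55 after the GC correction; the libraries of both times share the composition of their clone. The interaction of clone and time called 40 genes (0.241%), and 2459 at an unadjusted p under 0.05.

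Among members, the differences found at both times included Gm26825 (6.21 at 24 h), Xist (4.33), Kcnq1ot1 (3.04), Peg3 (1.43), Brwd3 (2.15), Nr2c2ap (-1.81) and Fdps (-1.14), all called at 24 h as well. At 24 h Meg3 was called higher too (2.20, adjusted p = 0.000414). The two-cell-like genes had 2 of 17 called at 24 h (median 1.22): Zscan4c differed by 0.62 (adjusted p = 0.448) and Zscan4f by 0.91 (adjusted p = 0.243). None of the 17 was called for the interaction, so that a change of their clone difference from 0 h to 24 h was not shown. H19 was not called at 24 h (1.29, adjusted p = 0.184), nor Cdkn1c (-0.40, adjusted p = 0.548). Of 13 primitive endoderm genes 6 were called higher in the libraries labelled KO#2 at 24 h, among them Pdgfra (2.79) and Gata6 (2.20), and 8 after the GC correction. Of the ribosomal protein genes 68 of 82 and of the histone genes 61 of 71 were called lower, and 64 and 57 after the GC correction. Both lists hold short transcripts (median lengths of 1054 and 534 bases), and the clone difference at 24 h moved with transcript length across all genes (Spearman's rho 0.37, and a median of -0.70 in the decile of the shortest transcripts). The part of length in these counts was not tested.

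The remaining lists held few calls at 0 h, beside 15.1% of all genes higher and 11.3% lower. Of 22 germline genes under control by DNA methylation 3 were higher, Sycp2, Stk31 and Taf7l on chromosome X, and 7 without replicate 3 of KO#1. With the correction 1 was higher and 1 lower, and of the 3 genes Taf7l kept its call. Of 9 genes of DNA methylation Uhrf1 was lower (-0.83), of 11 genes of the lamina and inner nuclear membrane Banf1 (-1.09), of 3 Myc genes Mycl (-1.02) and of 5 primitive streak genes Eomes (-1.14), and after the GC correction these 4 lists held no call. Of 16 Hox genes Hoxd13 was lower (-1.73), also after the correction. Of 10 Wnt target genes Lgr5 was higher with and without the correction, with 1, 0 and 0 counts against 19, 18 and 120. Of 11 genes of Nodal and Activin Acvr2a was higher (0.99), and none after the correction. Of 16 genes of antigen presentation and interferon Ifit1 was higher (3.10), a call lost with the correction, under which 1 gene was higher and 1 lower. Of 23 clustered protocadherins Pcdhgb1 and Pcdhgb5 were higher, and 4 after the correction. Of 14 immediate early genes Ier2 and Junb fell by 1.27 and 0.88 on the log2 scale, both from chromosome 8, and neither was called after the correction. Of all these genes Taf7l and Lgr5 were called with the GC correction, with scaling by library size alone and in each of the 6 fits that left out a library. Banf1, Acvr2a and Ier2 were called in each of those 6 fits but not with the GC correction, and Banf1 and Ier2 not with library sizes alone (adjusted p = 0.109 and 0.0771), under which Uhrf1, Mycl, Hoxd13, Eomes and Junb lost the call too. Sycp2, Stk31, Uhrf1, Mycl, Hoxd13, Eomes, Ifit1, Pcdhgb1, Pcdhgb5 and Junb lost the call in between 2 and 6 of the 6 fits.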

How the data were processed

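Total RNA was sequenced in 18 libraries, 3 in each of 6 groups (wt, KO#1 and KO#2 at 0 h and 24 h). The authors deposited 1 table of raw counts per gene (45706 genes); per the labels and the methods of the study, reads were trimmed, cleared of ribosomal RNA, aligned to GRCm38 with STAR and counted within the nf-core pipeline, while the annotation release and the strand setting used to count these stranded libraries are not given in the sources used here. Replicates were said to be biological, and the p-values measure the spread between these libraries of 1 clone each. Clones were compared in a fit over all 18 libraries with edgeR 4.0.16 (TMM, filterByExpr with a minimum count of 10, quasi-likelihood test, R 4.3.3), Benjamini-Hochberg adjusted over 16619 genes, with a threshold of 0.05. The SE was taken from the F statistic of each gene. CPM were computed from tested counts and TMM factors. Positions and types come from GENCODE M21 (45143 genes matched). The GC correction fitted a natural spline with 5 degrees of freedom to the GC content of the longest transcript (16517 genes). Intervals are 95% and cover counting error only; the limit of detection is 3 counts per library. Levels of chromosomes used log2(CPM + 1).

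The clones, the 32 gene lists and the tests were chosen with earlier results of these data known. Named genes were Hmga2, Hmga1, Gapdh; the 10 protein-coding genes with the largest difference in each direction among those called, without overlap and with at least 5 CPM in the higher group; 3 such genes of other types and the 5 with the smallest p in each direction; and up to 4 called members of each list. Members not called are named for their role, after their values were seen. Some genes that this rule selects are not reported here. No 2 of the 18 libraries were identical. Alternatives were other scalings, DESeq2 1.42.0, other filters, thinned libraries, a replicate block and leaving out each library.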

Additional observations from a re-analysis of the deposited data

Results flagged for a closer look

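Krt18 was the gene of the report whose clone difference changed between the times by the test of the interaction: the difference at 24 h minus that at 0 h was -4.66 on the log2 scale (edgeR, adjusted p = 0.0407). Krt18 was higher in KO#2 by 3.65 at 0 h, whereas at 24 h the value was -1.01 (adjusted p = 0.193). At 0 h its KO#2 libraries had 42.5, 79.2 and 7.10 CPM.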

How the results depend on the processing

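The count of 4393 genes between the clones at 0 h was 2559 after the GC correction, 2746 with the GC correction and the replicate block, and 1914 at an adjusted p under 0.01; without single libraries it was between 2601 (without replicate 1 of KO#2) and 3613. The count at 24 h was 9986 with scaling by library size alone and 3402 at an adjusted p under 0.01. The interaction, with 40 genes, was least stable: 222 with library sizes alone, 452 with DESeq2, 783 without the filter, 103 with the replicate block, 7 with thinned libraries, 133 with the GC and length correction, 178 with the GC correction and block, 1 at an adjusted p under 0.01, and 5 to 66 without single libraries (5 without replicate 2 of KO#2, 66 without replicate 3 of KO#1). The median of chromosome 8 was -0.76 with RLE factors, -0.42 with library sizes alone, -0.53 and -0.51 with the GC and the GC and length correction, and -0.75 to -0.63 without single libraries; that of chromosome X was 1.19 with library sizes alone and 0.75 to 1.28. The cause was not tested. Replicate numbers did not pair the libraries (r of same-numbered libraries 0.28, -0.07 and -0.16, and not every library correlated best with its own number); with the replicate block 4682 genes were called at 0 h. Of 104 named genes called, none changed sign; 38 lost the call with the GC correction, 22 with library sizes alone, 7 with the block, 1 with DESeq2 and 15 to 24 without single libraries. In KO#1 replicate 2, the shallowest library, 3 counts were 0.626 CPM, which limits statements on genes near that level.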
